A study of Capra hircus with 10 samples.

Results

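Potassium channel genes were taken as the protein-coding genes of the goat table whose symbol starts with KCN and a further letter, and there were 94 of them among 20587 protein-coding gene symbols. They had 206 transcripts among 43766 protein-coding transcripts. RNA came from whole ovaries of Anhui white goats (Capra hircus), 5 from the luteal and 5 from the follicular phase of the oestrous cycle, collected at a slaughterhouse and given no treatment that the labels name. Each ovary gave 1 strand-specific, paired-end library of RNA depleted of ribosomal RNA. The labels do not say whether each ovary came from a separate goat, so the p-values measure the spread between these ovaries. Luteal markers STAR, LHCGR, PTGFR and SCARB1 were higher in the luteal phase in 4 of 4 genes, with a summed level of 2830 to 4038 in luteal ovaries and 60.5 to 75.2 in follicular ovaries.

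Potassium channels let potassium ions leave or enter a cell along their gradient and so set the resting membrane potential and end electrical activity. Voltage-gated channels open on depolarisation, calcium- and sodium-activated channels open when those ions rise inside the cell, inward rectifiers pass current best near the resting potential, and two-pore channels carry a leak that is open at rest. Pore-forming subunits work with modifier subunits that make no channel alone and with auxiliary subunits that change the gating of the pore. In the ovary, potassium channels are known in granulosa and luteal cells, where they bear on steroid secretion, and in the contractile cells of blood vessels.

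All values are FPKM (mapped fragments divided by the length of the transcript and by the size of the library), summed over the transcripts of a gene, so levels of different genes are compared per length. Each of the 94 genes was above 0 in at least 1 ovary, and 74 to 83 of them were above 0 in a luteal phase ovary and 79 to 91 in a follicular phase ovary. Read counts were not used here. The steps between low FPKM values put the relative depth at 0.879 to 1.01 of the median ovary in the luteal phase and at 0.889 to 1.35 in the follicular phase. They do not give the absolute depth of an ovary, and the paper's text states clean reads as a total over all libraries. The test covered genes that reached an FPKM of 0.1 in 5 or more ovaries. The difference luteal minus follicular phase was tested on log2(FPKM + 0.1) by limma, a two-sided test, and the false discovery rate was set by Benjamini-Hochberg adjustment over the 15359 genes tested. Fold changes are on this scale, which understates the change of low genes. A call is an adjusted p under 0.05. Of the 94 genes, 58 passed this minimum and 36 did not. The means over all ovaries of those 36 lay between 0.00212 and 0.103, their highest single value was 0.269, and 28 of them were listed at 0 in at least 1 ovary. They include KCNA1, KCND2, KCNJ11, KCNK9 and KCNE2. Of the 58 genes tested, 47 reached the minimum in all 10 ovaries.

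Of the 58 genes tested, 29 were called. The luteal phase was higher for 11 of them (19.0% of those tested) and the follicular phase for 18 (31.0%). Among all genes tested 43.7% were called, 15.9% higher in the luteal and 27.8% higher in the follicular phase, so the shares of potassium channel genes were near the background in each direction. The phases did not overlap for 20 of the 58, with the luteal phase above for 10 and the follicular phase above for 10. Over all genes tested 28.4% did not overlap, 11.2% with the luteal phase above and 17.2% with the follicular phase above. The median log2 fold change of the 58 genes was -0.35, beside -0.14 over all genes tested. This gap depended on the processing. With the most abundant transcript of each gene the medians were 0.000674 for potassium channel genes and -0.134 for all genes. With no minimum FPKM they were -0.113 and -0.114. In the other refits the potassium channel median stayed below that of all genes.

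**Figure D1:**
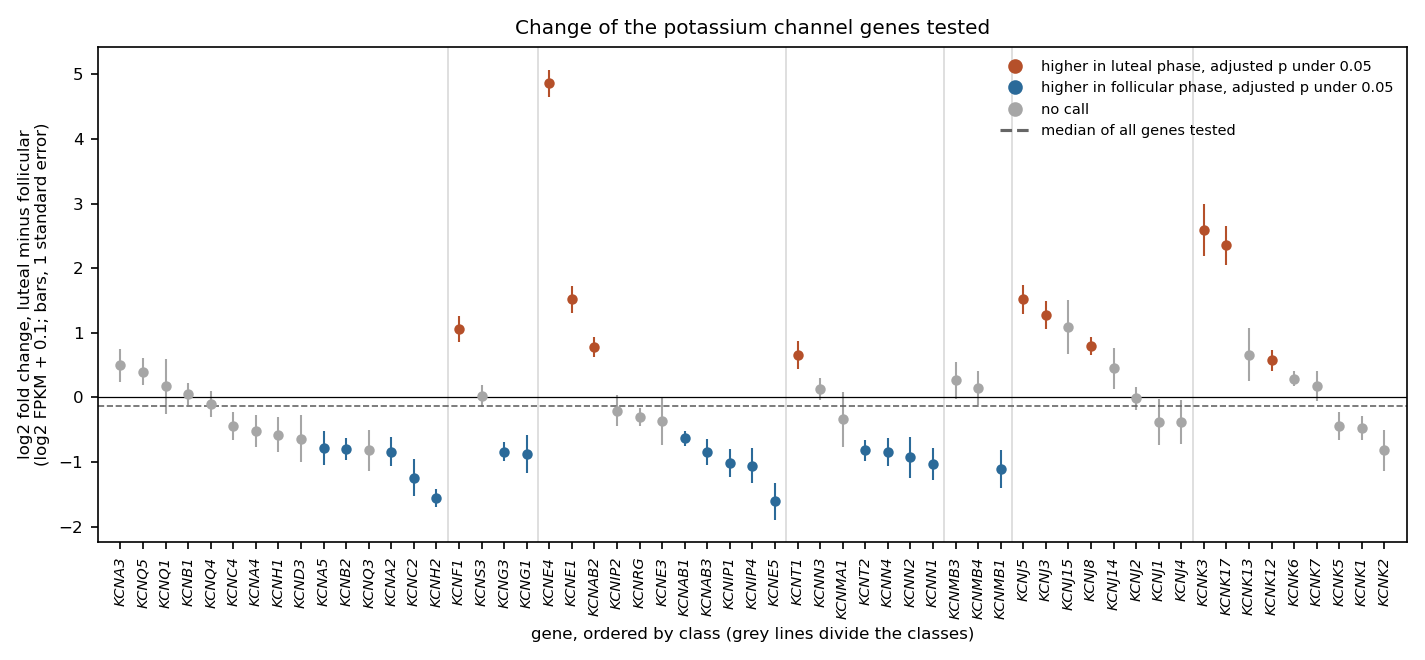
Log2 fold change (luteal minus follicular phase, on log2(FPKM + 0.1)) of 57 of the 58 potassium channel genes tested, ordered by class along the horizontal axis. Bars are 1 standard error, colours mark the direction of a call and the dashed line is the median of all genes tested, -0.14. KCNE4, at 4.86, lies far above the other genes, and the inward rectifier and two-pore classes hold no gene called higher in the follicular phase.

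The calls are given by class, and no class was tested against another. Among the voltage-gated pore genes, 0 of 16 tested had a call in the luteal direction and 6 had one in the follicular direction, with a median log2 fold change of -0.57. Among the inward rectifiers 3 of 8 tested had a luteal call and 0 a follicular call, and the median was 0.62. The two-pore genes had 3 and 0 calls among 9 tested, with a median of 0.29. The calcium- or sodium-activated pore genes had 1 call in the luteal and 4 in the follicular direction among 7 tested, with a median of -0.82. The other classes had calls in both directions or few genes. The modifier subunits had 1 luteal and 2 follicular calls among 4 tested (median -0.41), the voltage-gated auxiliary subunits 3 and 5 among 11 (median -0.37), and the calcium-activated auxiliary subunits 0 and 1 among 3 (median 0.15).

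Summed over its members, the voltage-gated pore class was at 12.2 ± 1.74 in luteal ovaries and 22.7 ± 3.61 in follicular ovaries (SD, n = 5 each), and the ovaries of the phases did not overlap. Inward rectifiers were at 23.7 ± 2.07 and 14.3 ± 2.12, and two-pore channels at 28.2 ± 4.64 and 18.0 ± 0.937, without overlap in either class. A few abundant genes held much of these differences, so the sums do not show a shift of every member. In luteal and follicular means, KCNJ8 was at 17.1 and 9.90 and KCNK12, whose phases overlapped, at 18.8 and 12.2. Among the voltage-gated pore genes, KCNH2 was at 2.88 and 8.67 and KCNC2 at 2.26 and 5.12. The sum over the 94 genes was 179 ± 17.8 in luteal ovaries and 136 ± 7.06 in follicular ovaries. This order rested on 1 gene. Without KCNE4 the sums ran from 108 to 133 in luteal ovaries and from 129 to 146 in follicular ovaries, and the order of the means turned. KCNE4 held 31.6% of the luteal sum and 1.35% of the follicular sum. KCNAB1 held 11.6% and 23.6%, the largest share in the follicular phase.

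**Figure D2:**
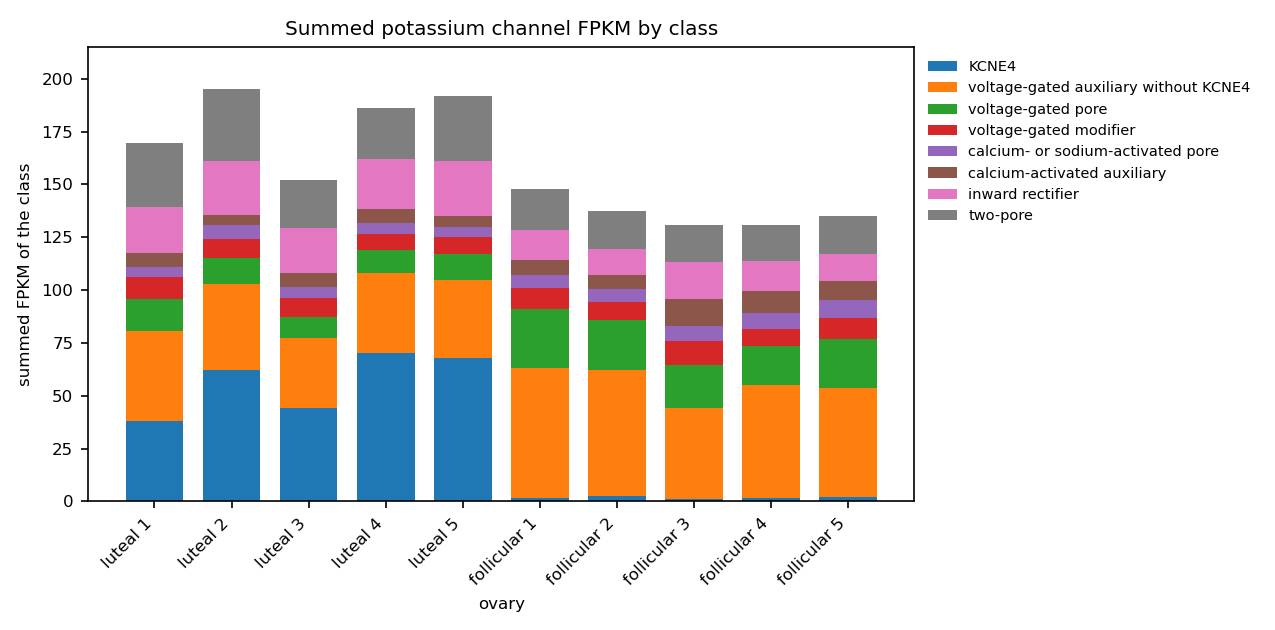
Summed FPKM of the potassium channel classes in each of the 10 ovaries, stacked, with KCNE4 shown apart from the other voltage-gated auxiliary subunits. KCNE4 fills 22.5% to 37.8% of the column in luteal ovaries and 1.06% to 2.00% in follicular ovaries.

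The auxiliary subunits held the 2 most abundant genes by the mean over all ovaries, KCNE4 and KCNAB1. KCNE4 ranked 1 in luteal and 14 in follicular ovaries, where KCNAB1 ranked 1 and the two-pore gene KCNK12 ranked 2. KCNE4 encodes a single-pass membrane protein that inhibits several voltage-gated channels, KCNQ1 among them. It was at 38.2, 62.0, 44.3, 70.4 and 67.7 in luteal ovaries and at 1.71, 2.75, 1.38, 1.46 and 1.92 in follicular ovaries. The lowest luteal ovary was far above the highest follicular ovary. The log2 fold change of 4.86 (SE 0.21, limma adjusted p = 4.59e-08) corresponded to 29.1-fold, and it ranked 21 of 15359 genes tested in the luteal direction. The table lists 1 transcript of this gene, XM_005676611.3, which carried all of the value. KCNE4 moved with the luteal markers given above, and the part of cell numbers in its change was not tested. In whole ovaries, fewer cells of a type and less RNA per cell cannot be told apart, and this holds for each result below.

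KCNE1 and KCNE5, of the same family, moved in opposite directions. KCNE1, which joins KCNQ1 to give the slow delayed rectifier of heart muscle, was at 5.32, 7.66, 4.96, 4.74 and 5.82 in the luteal phase and at 1.83, 2.53, 1.53, 1.27 and 2.65 in the follicular phase. All luteal ovaries were above all follicular ovaries, with a log2 fold change of 1.52 (SE 0.21, limma adjusted p = 0.000235). KCNE5, an inhibitor of the KCNQ1 current, was at 0.237, 0.412, 0.366, 0.284 and 0.236 in the luteal phase and at 1.92, 0.538, 0.974, 1.39 and 1.23 in the follicular phase. Here the follicular ovaries were all above the luteal ones, though follicular ovary 2 was near the luteal range. The log2 fold change was -1.61 (SE 0.28, adjusted p = 0.00111). KCNQ1 itself, the pore that these subunits modify, was not called (0.17, SE 0.42, adjusted p = 0.763). It ran from 0.226 to 2.11 in luteal ovaries and from 0.569 to 1.15 in follicular ovaries, a wider spread in the luteal ovaries. The level of KCNE4 was 32.0 to 58.1 times that of KCNQ1 in 4 luteal ovaries and 196 times in luteal ovary 3, where KCNQ1 was lowest, and it was 1.68 to 3.07 times that of KCNQ1 in follicular ovaries.

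Of the 6 KCNAB and KCNIP genes tested, which encode cytoplasmic auxiliary subunits, 4 were called higher in the follicular phase and 1 in the luteal phase. KCNAB1, a beta subunit that speeds the inactivation of KCNA channels, was at 22.1, 21.3, 16.0, 22.7 and 21.6 in the luteal phase and at 38.8, 32.3, 26.5, 32.3 and 31.2 in the follicular phase. The phases did not overlap, and luteal ovary 3 was apart below the other luteal ovaries. Its log2 fold change was -0.64 (SE 0.12, limma adjusted p = 0.00143), a change of 1.55-fold. KCNAB3 was also called lower in the luteal phase (-0.84), whereas KCNAB2 was called higher (0.78, with means of 2.16 ± 0.225 and 1.24 ± 0.249). KCNIP1, a calcium-binding partner of KCND channels, was at 7.97, 6.17, 6.02, 4.47 and 4.49 in the luteal phase and at 13.2, 17.1, 7.63, 12.3 and 10.1 in the follicular phase. Follicular ovary 3 lay inside the luteal range, and the log2 fold change was -1.02 (SE 0.22, adjusted p = 0.00321). KCNIP4 was called in the same direction (-1.06, adjusted p = 0.00881), a value that depended on the choice of transcript as given below.

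**Figure D3:**
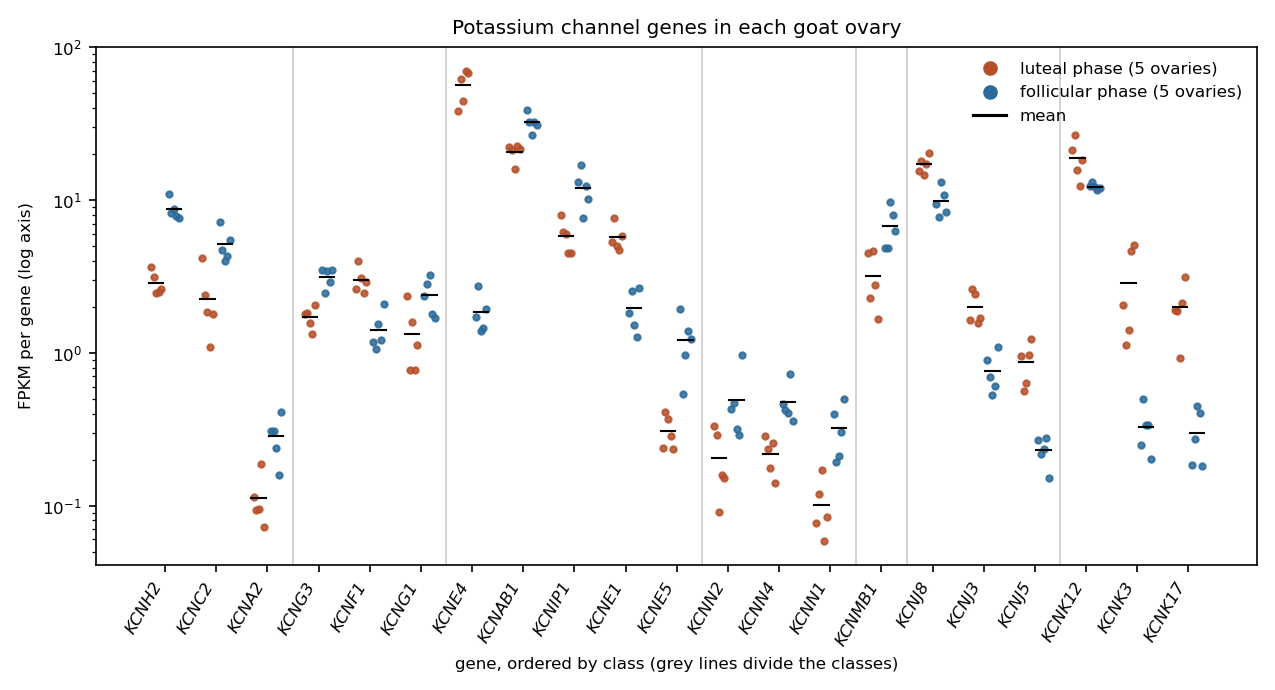
FPKM (log axis) of the 21 potassium channel genes given with the value of every ovary, ordered by class. Each point is 1 ovary and each line a phase mean. KCNE4 shows the widest gap between the phases, and the phases overlap for KCNC2, KCNA2, KCNG1, KCNIP1, KCNN2 and KCNK12.

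Among the voltage-gated pore genes, KCNH2 had the highest level and the largest change. It encodes the pore of the rapid delayed rectifier, the channel blocked by many drugs that lengthen the cardiac action potential. It was at 3.65, 3.14, 2.48, 2.52 and 2.62 in the luteal phase and at 10.96, 8.16, 8.75, 7.90 and 7.59 in the follicular phase. The phases were widely apart, with a log2 fold change of -1.56 (SE 0.14, limma adjusted p = 1.11e-05), or 2.95-fold lower in the luteal phase. KCNC2, a fast delayed rectifier best known from rapidly firing neurons, was at 4.18, 2.38, 1.86, 1.09 and 1.79 in the luteal phase and at 7.16, 4.68, 4.01, 4.30 and 5.44 in the follicular phase. Luteal ovary 1 reached the lower end of the follicular range, and the log2 fold change was -1.24 (SE 0.29, adjusted p = 0.00566). KCNA2, a low-threshold delayed rectifier, was near the minimum throughout. It was at 0.114, 0.0939, 0.0954, 0.186 and 0.0723 in the luteal phase and at 0.310, 0.308, 0.237, 0.158 and 0.408 in the follicular phase. Luteal ovary 4 overlapped follicular ovary 4, and the log2 fold change was -0.84 (SE 0.23, adjusted p = 0.0122). The value of KCNA2 depended on the choice of transcript, and it was -0.02 with no call for the most abundant transcript alone.

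KCNA5 and KCNB2 were also called lower in the luteal phase. KCNB2 was at 0.140 ± 0.0155 in luteal ovaries and 0.318 ± 0.0604 in follicular ovaries, and its phases did not overlap. KCNA5, a channel of atrial and vascular smooth muscle, was at 0.399 ± 0.162 and 0.744 ± 0.212 (log2 fold change -0.78). The call of KCNA5 was lost without luteal ovary 1 or 2 or follicular ovary 1, 3 or 5, with a limma adjusted p of up to 0.0772, and after conversion to TPM (values scaled to the same total in each ovary).

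The modifier subunits make no channel alone and assemble with KCNB channels. KCNF1 was at 2.63, 3.98, 3.07, 2.47 and 2.92 in the luteal phase and at 1.17, 1.05, 1.54, 1.22 and 2.10 in the follicular phase. It was the one modifier subunit called higher in the luteal phase, with no overlap and a log2 fold change of 1.06 (SE 0.19, limma adjusted p = 0.00143). KCNG3 was at 1.79, 1.81, 1.57, 1.33 and 2.06 in the luteal phase and at 3.47, 2.46, 3.45, 2.89 and 3.46 in the follicular phase. The direction was the opposite of KCNF1, again without overlap (-0.84, SE 0.15, adjusted p = 0.00113). KCNG1 was at 2.36, 0.772, 1.58, 0.775 and 1.12 in the luteal phase and at 2.35, 2.84, 3.21, 1.78 and 1.68 in the follicular phase. Luteal ovary 1 lay inside the follicular range, and the log2 fold change was -0.87 (SE 0.30, adjusted p = 0.0338). The call of KCNG1 was lost without luteal ovary 2, 4 or 5 or follicular ovary 1, 2 or 3, with an adjusted p of up to 0.0833, and also with TPM, with quantile normalization and with each ovary shifted to a common median. KCNS3, the fourth modifier subunit tested, was at 2.61 ± 0.648 in luteal and 2.52 ± 0.306 in follicular ovaries and was not called.

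The calcium-activated pore genes that were called were all at low levels and lower in the luteal phase. KCNN1, a small-conductance channel of neurons, was at 0.0766, 0.119, 0.170, 0.0584 and 0.0845 in the luteal phase and at 0.397, 0.194, 0.212, 0.304 and 0.498 in the follicular phase. The phases did not overlap (-1.04, SE 0.25, limma adjusted p = 0.00648). KCNN4, the intermediate-conductance channel of blood cells and endothelium, was at 0.283, 0.233, 0.177, 0.256 and 0.141 in the luteal phase and at 0.464, 0.425, 0.403, 0.726 and 0.357 in the follicular phase. It too had no overlap (-0.84, SE 0.21, adjusted p = 0.00847). KCNN2 was at 0.331, 0.289, 0.0912, 0.158 and 0.152 in the luteal phase and at 0.429, 0.466, 0.315, 0.289 and 0.969 in the follicular phase. Luteal ovaries 1 and 2 met the lower follicular ovaries, and follicular ovary 5 stood alone at the top. Its log2 fold change of -0.93 (SE 0.32, adjusted p = 0.0337) lost its call without luteal ovary 3, 4 or 5 or follicular ovary 1, 2 or 5, with an adjusted p of up to 0.0731, with quantile normalization and with a pseudocount of 1 in place of 0.1.

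The sodium-activated channels split. KCNT2 was at 1.47 ± 0.301 in luteal ovaries and 2.65 ± 0.334 in follicular ovaries (-0.82), without overlap. KCNT1 was at 0.772 ± 0.217 and 0.453 ± 0.132 (0.65), and its call was lost without luteal ovary 1 or 2 or follicular ovary 1, 2, 3 or 4, with a limma adjusted p of up to 0.0691.

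KCNMB1, the auxiliary subunit that raises the calcium sensitivity of the large-conductance channel in smooth muscle, was at 4.52, 2.28, 4.65, 2.76 and 1.67 in the luteal phase and at 4.85, 4.87, 9.76, 7.96 and 6.30 in the follicular phase. The phases did not overlap, but luteal ovaries 1 and 3 were close to follicular ovaries 1 and 2. Its log2 fold change was -1.11 (SE 0.29, limma adjusted p = 0.0102). The pore of that channel, KCNMA1, was not called (-0.34, SE 0.43, adjusted p = 0.539) and ran from 0.477 to 2.21 in luteal ovaries and from 0.480 to 1.85 in follicular ovaries. The value of KCNMA1 is a sum over 32 transcripts, and 4 different transcripts led among the ovaries. Smooth muscle markers moved with KCNMB1, KCNAB1 and KCNA5. Of 10 listed smooth muscle markers tested, 9 were called lower in the luteal phase and 0 higher, and the list summed to 598 to 1080 in luteal and to 1348 to 1699 in follicular ovaries. Luteal ovaries 1 and 3 had the highest marker sums of their phase, as they had the highest KCNMB1, and luteal ovary 5 had the lowest of both. KCNAB1 and KCNA5 did not follow the marker sums in this way within the luteal phase. KCNAB1 was lowest in luteal ovary 3, and KCNA5 was highest in luteal ovary 4 and low in luteal ovary 1. In the follicular phase KCNMB1 was highest in ovary 3 and the marker sum in ovary 2. KCNAB1 and KCNA5 were both highest in follicular ovary 1 (38.8 and 0.948), where the marker sum was the lowest of its phase (1348). The part of smooth muscle in these results was not tested.

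**Figure D4:**
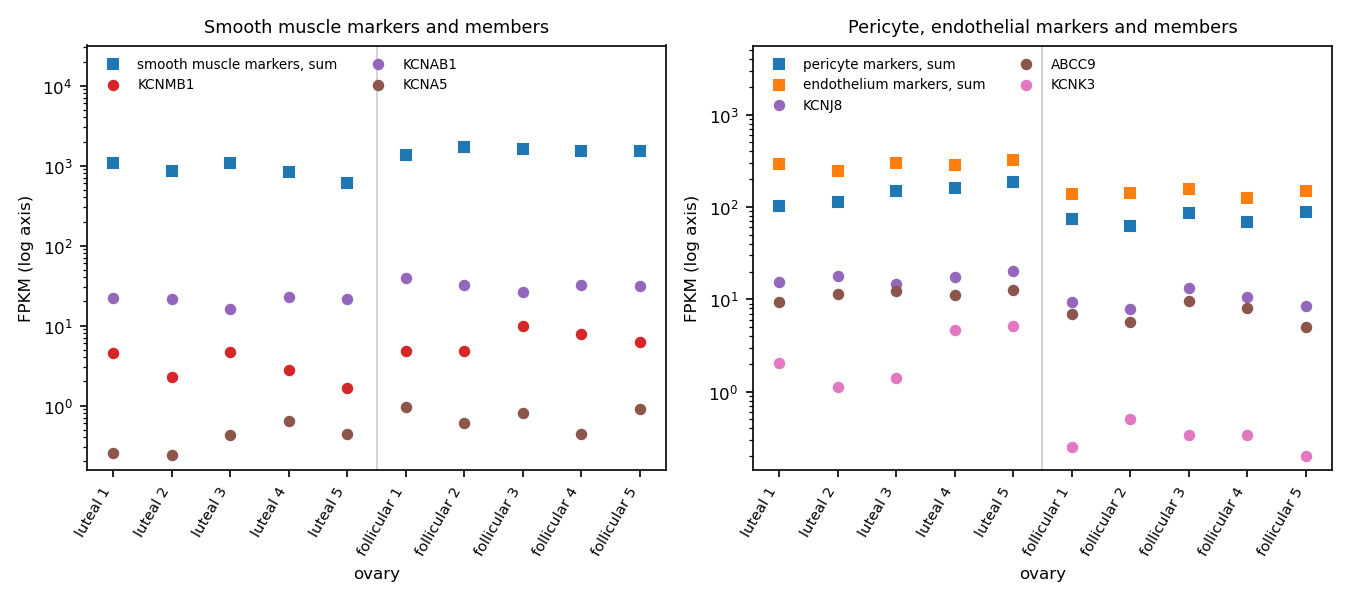
FPKM (log axis) in each ovary of marker sums (squares) and of genes that moved in the same direction between the phases (circles). The left panel shows smooth muscle markers with KCNMB1, KCNAB1 and KCNA5, where the marker sum is lower in the luteal phase. The right panel shows pericyte and endothelial markers with KCNJ8, its partner ABCC9, and KCNK3, where the marker sums are higher in the luteal phase.

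Inward rectifiers had calls in the luteal direction only. KCNJ8, the most abundant of them, forms the ATP-sensitive channel of vascular contractile cells. It was at 15.5, 17.9, 14.5, 17.3 and 20.3 in the luteal phase and at 9.39, 7.78, 13.2, 10.7 and 8.40 in the follicular phase. The phases did not overlap (0.80, SE 0.14, limma adjusted p = 0.00121). ABCC9, the sulfonylurea receptor that pairs with KCNJ8, was at 9.28, 11.5, 12.4, 11.1 and 12.6 in the luteal phase and at 6.91, 5.71, 9.57, 8.03 and 5.07 in the follicular phase. Follicular ovary 3 was the highest of its phase for both genes and reached the luteal range of ABCC9 (0.71, SE 0.16, adjusted p = 0.00501). The ratio of KCNJ8 to ABCC9 ran from 1.17 to 1.67 in the luteal phase (median 1.56) and from 1.34 to 1.66 in the follicular phase (median 1.36), so the ratios overlapped while the levels of both genes rose. The pancreatic counterparts KCNJ11 and ABCC8 were below the minimum, at phase means of 0.0728 and 0.0518 for KCNJ11 and of 0.0187 and 0.0477 for ABCC8.

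KCNJ3 and KCNJ5 encode the G protein-gated channels that slow the heart, and KCNJ5 is also known from the steroid-secreting adrenal cortex. KCNJ3 was at 1.63, 2.61, 2.42, 1.57 and 1.68 in the luteal phase and at 0.898, 0.698, 0.533, 0.606 and 1.09 in the follicular phase. KCNJ5 was at 0.955, 0.563, 0.632, 0.962 and 1.23 in luteal ovaries and at 0.269, 0.217, 0.235, 0.279 and 0.153 in follicular ovaries. Neither gene overlapped between the phases. The log2 fold changes were 1.28 for KCNJ3 (SE 0.22, limma adjusted p = 0.000876) and 1.52 for KCNJ5 (SE 0.22, adjusted p = 0.000353). The luteal order of the ovaries differed between them, with ovaries 2 and 3 highest for KCNJ3 and lowest for KCNJ5.

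The two-pore channels held the largest changes after KCNE4. KCNK3, an acid-sensitive leak channel known from the adrenal cortex and from pulmonary artery smooth muscle, was at 2.06, 1.12, 1.41, 4.63 and 5.09 in the luteal phase and at 0.251, 0.502, 0.339, 0.338 and 0.203 in the follicular phase. The phases did not overlap, and luteal ovaries 4 and 5 were apart from the other luteal ovaries. Its log2 fold change was 2.59 (SE 0.40, limma adjusted p = 0.000480), or 6.03-fold. KCNK17, an alkaline-activated channel, was at 1.90, 1.88, 0.922, 2.11 and 3.14 in the luteal phase and at 0.183, 0.274, 0.447, 0.404 and 0.182 in the follicular phase. It also had no overlap (2.36, SE 0.31, adjusted p = 0.000163). KCNK12, a member of the halothane-inhibited branch, was the most abundant two-pore gene, at 21.2, 26.5, 15.6, 12.4 and 18.1 in the luteal phase and at 12.3, 13.0, 12.1, 11.6 and 11.9 in the follicular phase. The follicular ovaries were close together, luteal ovary 4 lay among them, and the log2 fold change was 0.57 (SE 0.17, adjusted p = 0.0163).

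Pericyte and endothelial markers moved with the luteal calls of KCNJ8, ABCC9 and KCNK3. Of 5 pericyte markers tested 4 were called higher in the luteal phase and 0 lower, with sums of 102 to 184 in luteal and 62.0 to 87.4 in follicular ovaries. Of 9 endothelial markers 8 were called higher and 0 lower, with sums of 246 to 324 and 126 to 157. The pericyte sum was highest in luteal ovaries 4 and 5, where KCNK3 was highest, and among follicular ovaries it was highest in ovary 5, where KCNK3 was lowest. This match was not particular to pericytes. The sums of luteal markers (4038 and 3975), of leukocyte markers and of nerve and glia markers were also highest in luteal ovaries 4 and 5. Granulosa markers were called lower in 4 of 8 (sums of 163 to 740 and 285 to 1256), the theca marker INSL3 was lower (14.3 to 56.1 and 123 to 184), and oocyte markers were called lower in 5 of 7 tested (7.28 to 15.6 and 14.5 to 40.3), with OOSP2 at 0 in all ovaries. Nerve and glia markers had 3 calls in each direction among 8 tested, and their sum was 13.4 to 24.4 in luteal and 5.88 to 12.6 in follicular ovaries. Leukocyte markers had 1 luteal call among 6 tested, epithelial and stromal markers 1 call in each direction among 5 tested, and the 3 erythrocyte markers in the table summed to at most 0.0613. The part of these cells in the potassium channel results was not tested.

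Of the 58 genes tested, 29 were not called, and 5 of these had a limma adjusted p just above the threshold. KCNK6, a weak inward rectifier of the two-pore family, ran from 1.98 to 2.46 in luteal ovaries and from 1.69 to 1.89 in follicular ovaries. Its phases did not overlap, but the difference was small (0.29, SE 0.11, adjusted p = 0.0505). KCNQ3, KCNK1 and KCNK2 were lower in the luteal phase by mean, with log2 fold changes of -0.82, -0.48 and -0.82 and adjusted p of 0.0517, 0.0527 and 0.0530. KCNJ15 had a large but variable difference (1.09, SE 0.42, adjusted p = 0.0564), with luteal values of 0.292 to 2.21 and follicular values of 0.195 to 0.377.

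Single transcripts were fitted in the same way, with adjustment over 32842 transcripts of which 17.3% were called, 7.47% higher in the luteal and 9.82% higher in the follicular phase. Of the 206 potassium channel transcripts 80 were tested, and 11 were called higher in the luteal and 10 higher in the follicular phase. Of the 58 genes tested, 33 have 1 transcript in the table, and the gene value is then that transcript's. Of the 25 genes with several transcripts, 10 had the same leading transcript in all 10 ovaries and 15 did not. For KCNE1, 3 of 4 transcripts were called higher in the luteal phase, so the rise was not carried by 1 transcript. For KCNG3, the less abundant XM_018055171.1 was called with a log2 fold change of -1.98, and it held 12.3% of the gene's luteal and 31.8% of its follicular value. KCNE3, named after its values were seen, was not called as a gene (limma adjusted p = 0.430). Its transcript XM_018059353.1 was called lower in the luteal phase (-1.23). That transcript reached the minimum in 1 luteal and 5 follicular ovaries, so it passed the filter through the phase where it was higher. Its luteal values were 0 to 0.136, so no conclusion is drawn from this call.

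KCNIP4 and KCNA2 changed their leading transcript between ovaries. In KCNIP4, XM_018049334.1 led in the 5 luteal phase ovaries and in follicular ovaries 1 and 5, XM_018049335.1 led in follicular ovaries 3 and 4, and XM_005681464.3 led in follicular ovary 2. In each ovary the leading transcript held at least 90.4% of the KCNIP4 value. In KCNA2, XM_005677921.3 led in luteal ovaries and in follicular ovaries 3, 4 and 5, and XM_018045897.1 led in follicular ovaries 1 and 2, each with at least 95.8% of the value. KCNN1 also had another leading transcript in follicular ovaries 2 and 4. The choice between transcripts of 1 gene was made by the authors' quantification and cannot be checked from FPKM alone. With the most abundant transcript in place of the sum, KCNIP4 had a log2 fold change of 1.36 and no call (limma adjusted p = 0.209), a reversed direction. KCNA2, KCNG3 and KCNT2 lost their calls with smaller log2 fold changes of -0.02, -0.50 and -0.57, and KCNAB2 lost its call at a similar log2 fold change of 0.76. KCNA5, KCNG1 and KCNN2 also lost their calls there, with the same log2 fold changes as before.

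**Figure D5:**
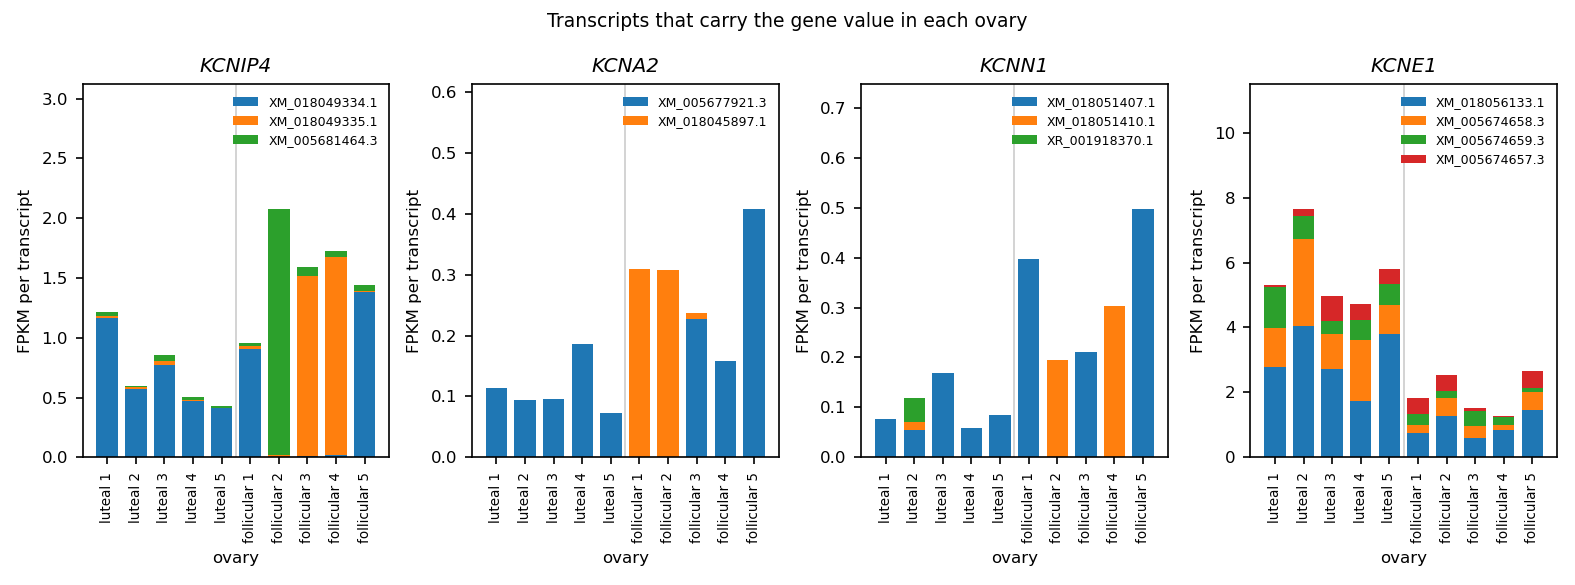
FPKM of each transcript, stacked to the gene value, in the 10 ovaries for KCNIP4, KCNA2, KCNN1 and KCNE1. In KCNIP4, KCNA2 and KCNN1 the colour that fills a column differs between follicular phase ovaries, and in KCNE1 several transcripts are higher in the luteal phase together.

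Several of these genes lie side by side in RefSeq for the goat assembly ARS1.2, in which all 94 gene identifiers were found. That annotation was used for gene order and overlap only, since the build behind the table is not given in the sources used here. KCNJ8 and ABCC9 are adjacent, and both were called higher in the luteal phase. KCNMB1 and KCNIP1 are adjacent, and both were called lower. In 3 other pairs with both genes tested, 1 gene was called and its neighbour was not. KCNK17 (2.36) lies next to KCNK5 (-0.45, not called), KCNJ5 (1.52) next to KCNJ1 (-0.38, not called), and KCNA2 (-0.84) next to KCNA3 (0.50, not called). The last 3 uncalled genes were named for their position after their values were seen. KCNAB1, KCNB2 and KCNMB3 overlap another protein-coding gene there, so reads of the overlap could be counted for either gene where strand does not separate them.

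Of 47 related genes in the table (channel partners, cation channels and potassium transport), 31 were tested, 5 were called higher in the luteal and 6 higher in the follicular phase (16.1% and 19.4% of those tested, beside 15.9% and 27.8% of all genes tested). Their median log2 fold change was -0.23, beside -0.14 over all genes tested. Partner proteins had 1 luteal and 2 follicular calls among 4 tested. Apart from ABCC9, these were LRRC55, an auxiliary subunit of the large-conductance calcium-activated channel (-1.21, SE 0.17, limma adjusted p = 0.000283), and DPP10, a partner of KCND channels (-1.27, SE 0.28, adjusted p = 0.00371), both without overlap. The 2 HCN channels tested, which carry the pacemaker current, had no call. At an unadjusted p under 0.05 neither passed, and their log2 fold changes were 0.39 for HCN2 and 0.05 for HCN3.

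Voltage-gated calcium channel genes, which open on the depolarisation that potassium channels oppose, had 2 calls in each direction among 11 tested (median -0.39). CACNA2D1, an auxiliary subunit, was at 21.8, 20.0, 25.6, 27.3 and 28.4 in the luteal phase and at 13.4, 10.2, 13.5, 13.6 and 13.0 in the follicular phase. It was the most abundant of these genes and did not overlap (0.94, SE 0.12, limma adjusted p = 0.000120). The pore gene CACNA1D was called higher in the luteal phase (0.80) and the beta subunit CACNB2 lower (-0.52). Pumps and cotransporters that move potassium had 2 calls in each direction among 14 tested (median 0.03). The sodium pump subunit ATP1B3 was at 63.8, 77.9, 52.1, 53.3 and 57.5 in the luteal phase and at 30.6, 43.3, 29.3, 35.8 and 19.8 in the follicular phase. It had no overlap (0.97, SE 0.19, adjusted p = 0.00178). FXYD5, a regulator of the pump, was called higher in the luteal phase (0.60), and ATP1B2 lower (-0.72, adjusted p = 0.0495). The call of ATP1B2 was lost without luteal ovary 1, 2, 4 or 5 or follicular ovary 1, 3, 4 or 5, with an adjusted p of up to 0.110, and also with a pseudocount of 0.01, no minimum, a common median, TPM, eBayes without trend or the most abundant transcript.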

How the data were processed

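Total RNA of each ovary was depleted of ribosomal RNA and sequenced. According to the study's methods, the authors aligned reads with HISAT2 v2.0.4, assembled transcripts with StringTie v1.3.1 and computed FPKM with Cuffdiff v2.1.1. The genome build is not given in the sources used here. The deposited FPKM values, 1 per transcript and ovary, were summed by gene symbol over protein-coding transcripts. No value column lacked a sample. The authors' own comparisons were not used.

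Genes or transcripts that reached 0.1 FPKM in 5 or more of the 10 ovaries were fitted on log2(FPKM + 0.1) with limma 3.58.1 under R 4.3.3 (eBayes with trend), two-sided, without a block. Adjustment was by Benjamini-Hochberg over all genes or all transcripts tested. The fit was tested on simulated data. Depth ratios were read from whole multiples among FPKM values under 0.05, and 45 of 45 pairs of ovaries agreed within 1%. FPKM carries no counts, so no counting intervals were given. Tables and figures were made in Python 3.11.15 with pandas 2.3.3, matplotlib 3.10.9, numpy 2.4.6 and scipy 1.17.1.

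The members, classes and lists were chosen with earlier results of these data known. Genes given with every ovary's value were the 3 called genes with the largest change in each class and the 8 genes with the highest mean. Other called genes were given by means or fold change, up to 8 uncalled genes were to be named, and related lists gave their 3 largest calls. The uncalled genes named beyond 8 were chosen after their values were seen, for a partner, position, transcript or distant ovary. The alternatives were pseudocounts of 1 and 0.01, no minimum, a minimum of 0.5, a minimum on the mean, TPM, quantile normalization, a common median, a replicate block, eBayes without trend, the most abundant transcript, other thresholds, and leaving out each ovary. Genes of the lists that were not found in the table were not analysed here, and 1 called gene is in the counts but not reported here by name.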

Additional observations from a re-analysis of the deposited data

Results flagged for a closer look

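Among 134 groups of 5 ovaries of 1 phase, 116 of them for potassium channel genes and 18 for related genes, 10 had 1 ovary whose distance from the others passed Dixon's critical value of 0.71 for 5 samples. Chance gives about 1 in 20 groups. Of the 10, 4 were luteal and 6 follicular. KCNAB1 was at 15.96 in luteal ovary 3, below 21.3 to 22.7 in the others. KCNJ2, an inward rectifier, was at 1.62 in luteal ovary 1, above 1.00 to 1.15. KCNK13, a two-pore channel, was at 0.705 in luteal ovary 3, above 0.281 to 0.397. KCNN2 was at 0.969 in follicular ovary 5, above 0.289 to 0.466, and without that ovary its call was lost. KCNN4 was at 0.726 in follicular ovary 4, above 0.357 to 0.464. KCNQ3 was at 0.334 in luteal ovary 1, above 0.0951 to 0.160, and at 0.818 in follicular ovary 2, above 0.198 to 0.356. KCNT1 was at 0.687 in follicular ovary 5, above 0.373 to 0.420. KCNT2 was at 2.08 in follicular ovary 2, below 2.64 to 2.85. CACNA2D1 was at 10.2 in follicular ovary 2, below 13.0 to 13.6.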

How the results depend on the processing

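Of the 29 potassium channel calls, 19 were called in each of 21 refits in which the gene was tested, 5 were lost in 1 refit and 5 (KCNA5, KCNG1, KCNN2 and KCNT1 among them) in 7 to 13. The 18 genes called higher in the follicular phase became 11 with a minimum FPKM of 0.5, where 39 potassium channel genes were tested. They became 9 with the most abundant transcript of each gene, where 56 were tested. There 7 of the 29 calls were lost in genes still tested, and KCNIP4 turned to 1.36. Leaving out 1 ovary gave 10 to 12 luteal and 15 to 19 follicular calls. Of all member calls 37.9% were luteal, against 44.8% with a common median, 46.7% with quantile normalization, 46.4% with TPM, 52.2% with the minimum of 0.5 and 52.6% with the most abundant transcript. Over all genes the share was 36.3%, and 48.8% with a common median or TPM. Transcript calls went from 11 luteal to 7 and from 10 follicular to 3 at an adjusted p under 0.01, and to 20 follicular at an unadjusted p under 0.05. Leaving out 1 ovary gave 8 to 11 luteal and 6 to 11 follicular transcript calls, with 6 without luteal ovary 4 or 5. The 6 follicular calls of related genes became 3 with a common median or TPM and 2 with the most abundant transcript or at an adjusted p under 0.01, and 3 to 9 without 1 ovary. All-gene follicular calls went from 4272 to 2371 at an adjusted p under 0.01 and to 3357 to 4510 without 1 ovary. The causes were not tested. Ovaries with the same number correlated at 0.0258 to 0.199 in their deviations, and 2 of 5 correlated best with their own number. The labels do not say whether ovaries share a goat, so these correlations cannot decide whether the numbers pair samples. With a replicate block 10 luteal and 18 follicular genes were called, 26 of the 29 among them, and KCNA5 and KCNT1 were among the calls lost. The sums by class kept their order of means with TPM, with the most abundant transcript and without each ovary, alternatives chosen after seeing the data.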
